A study of Mus musculus with 9 samples.

Results

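Fragments of the nuclear lysine tRNAs were examined in mouse blood serum. A read was counted when every one of its alignments lay on mature references named Lys-CTT or Lys-TTT, and 3401 of 41240 distinct read sequences met this rule. They held 28260 of 555585 tRNA reads (5.09%). Of these, 22012 reads (77.9%) lay on Lys-CTT, 5506 (19.5%) on Lys-TTT, and 742 (2.63%) fitted both and were kept apart. The study sequenced tRNA fragments at week 20 from mice on a high fat diet with SalB, on a high fat diet alone and on a normal diet, with 3 libraries in each group. SalB is salvianolic acid B, a polyphenol of the Salvia miltiorrhiza root, and the series asks about atherosclerosis. The titles of the normal diet libraries carry the strain name C57 and those of the other groups do not, so diet or treatment and strain cannot be told apart in comparisons with the normal diet. No source used here gives the dose, age, sex or genotype. Nothing in the labels ties each library to its own animal, and p-values then cover only the spread among libraries of a group, possibly a technical one. The files hold tRNA reads only, so the serum label was not checked against marker genes. Fewer releasing cells and less RNA per cell cannot be told apart in serum.

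Transfer RNAs carry amino acids to the ribosome and read codons through their anticodon. Lys-CTT reads the codon AAG, and Lys-TTT reads AAA through a heavily modified wobble uridine; the human counterpart of Lys-TTT is known as the primer of HIV reverse transcription. Nucleases cut tRNAs in the anticodon loop, the D-loop or the T-loop, which gives long 5′ pieces, internal pieces and short 3′ pieces that end in the added CCA tail, and all of these circulate in blood.

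Base 1 is the first base of the mature tRNA, so the anticodon is at bases 34 to 36 and the CCA tail ends at base 76. The references Lys-CTT-2-1 and Lys-CTT-3-1 differ at only 2 of 76 bases (G29A and C41T), and Lys-CTT-2-1 differs from Lys-TTT-1-1 at 14. A read over bases 28 to 30 therefore tells 3 kinds of lysine tRNA apart. These are called the CTT-3 type, the CTT-2 type and the TTT type, a division made after the values were seen. A type is not a single reference. Every tested CTT-3 piece that starts at bases 13 to 16 fitted Lys-CTT-13-1 as well as Lys-CTT-3-1, and these references showed 0 differences over the 32 bases compared. The same stretch of each, from base 16 to base 31, is shown first because 1 version rose, 1 was not called and 1 fell with SalB against high fat diet, with bases 28 to 30 in capitals. The 3′ pieces from base 61 to base 76 and the piece from base 3 to base 25 follow because they were lower with SalB, and the CCA tail is in capitals. A long 5′ piece is shown last, with the anticodon bases it holds in capitals.
CTT-3 type, bases 16 to 31: tcggtagagcatGAGa
CTT-2 type, bases 16 to 31: tcggtagagcatGGGa
TTT type, bases 16 to 31: tcggtagagcatCAGa
Lys-CTT, bases 61 to 76: cccacgttgggcgCCA
Lys-TTT, bases 61 to 76: ccctgttcgggcgCCA
Lys-CTT, bases 3 to 25: ccggctagctcagtcggtagagc
CTT-2 type, bases 1 to 35: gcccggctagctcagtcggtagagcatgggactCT

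The files name 12 Lys-CTT and 5 Lys-TTT references without their places in the genome. RefSeq (assembly GRCm38.p6) lists 24 Lys-CTT and 2 Lys-TTT genes on 12 chromosomes, so no fragment is assigned to a locus here. A further 947 reads met lysine and other tRNAs at once, 649 met lysine precursors and 36 met mitochondrial Lys-TTT, and all of these lie outside the rule.

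The SalB libraries held 62258, 156333 and 40134 tRNA reads, of which 3660, 5233 and 2440 were lysine reads. The high fat diet libraries held 2901, 1606 and 2885 lysine reads and the normal diet libraries 2348, 1516 and 5671. SalB replicate 2 stood apart. Precursor reads of Leu-CAG-3-1 filled much of it, and it held 122 of the 133 lysine reads of 20 bases or more that start at bases 47 to 50. It also held 66 reads on a set of minor Lys-CTT references, against 2 in SalB replicate 1 and 0 in the other 7 libraries together. For this reason values are given per library, and results without SalB replicate 2 are given where they rest on it.

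The share of lysine reads among all tRNA reads did not separate the groups. It was 5.88, 3.35 and 6.08% with SalB, 5.23, 5.70 and 6.50% on high fat diet, and 5.46, 4.88 and 5.99% on normal diet (exact permutation p = 0.796 over 280 partitions of the libraries). The ranges overlapped in every pair. With the Leu-CAG-3-1 precursor reads taken out of the total, the SalB shares were 6.03, 5.74 and 6.08%.

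Levels were then compared as normalised CPM, read counts scaled to 1 common library total with trimmed means of M values. On this scale the lysine total was 67490, 82062 and 60777 with SalB, 43408, 46277 and 55328 on high fat diet, and 43896, 42946 and 52381 on normal diet. All SalB libraries lay above all others, and the diets alone overlapped. Among sums per amino acid, 41.1% were called for SalB against high fat diet (39.3% higher, 1.79% lower) and 53.6% for SalB against normal diet (51.8% higher, 1.79% lower). The lysine total was among them, with log2 fold changes of 0.55 (SE 0.18, limma-voom adjusted p = 0.0393) and 0.58 (SE 0.18, limma-voom adjusted p = 0.0258).

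Lys-CTT, the larger family, was higher with SalB than in both other groups. It averaged 55463 ± 10129.8 with SalB and 35194 ± 3732 on high fat diet (SD, n = 3 each), a log2 fold change of 0.66 (SE 0.19, limma-voom adjusted p = 0.0300). Against the normal diet mean of 36773 ± 5244 it was 0.58 (SE 0.19, limma-voom adjusted p = 0.0419). Lys-TTT was not called. It averaged 12118 ± 3035 with SalB, 11850.0 ± 2489 on high fat diet and 8906 ± 70.7 on normal diet, and its SalB and high fat diet libraries overlapped (limma-voom adjusted p = 0.952, log2 fold change 0.01). Against normal diet it had 0.41 (limma-voom adjusted p = 0.200), and without SalB replicate 1 it was called there, at 0.76 (limma-voom adjusted p = 0.0253). The reads that fit both families rose to 2528 ± 339.9 with SalB, against 1294 ± 259 on high fat diet (log2 fold change 0.96, SE 0.21, limma-voom adjusted p = 0.0153) and 729 ± 48.9 on normal diet (1.78, SE 0.22, limma-voom adjusted p = 0.000511). Of all families, 31.1% were called for SalB against high fat diet (26.2% higher, 4.85% lower) and 34% for SalB against normal diet (28.2% higher, 5.83% lower).

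**Figure D1:**
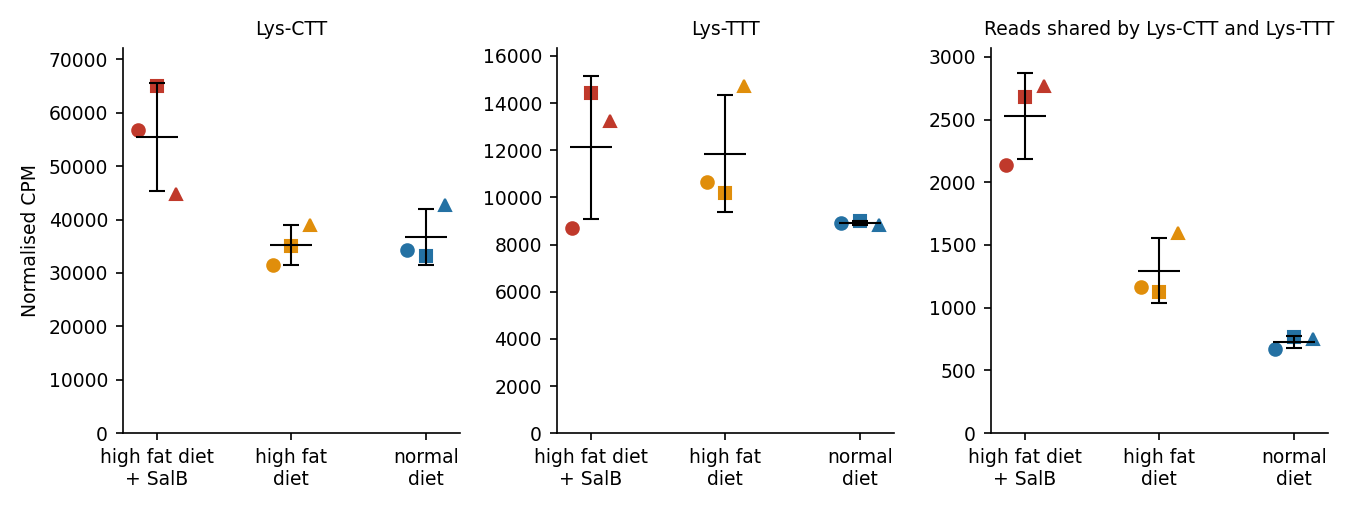
Normalised CPM of Lys-CTT, Lys-TTT and the reads shared by both in each library (points, with replicates 1, 2 and 3 as circle, square and triangle), with the mean and SD of each group (black, n = 3). Lys-CTT and the shared reads were higher in every SalB library than in any other, while Lys-TTT overlapped between SalB and high fat diet.

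These family levels rest on the scaling. With total tRNA reads as the scale, the log2 fold change of SalB against high fat diet was -0.13 for Lys-CTT, -0.78 for Lys-TTT and -0.30 for the lysine total, that against normal diet was -0.16, -0.35 and -0.22, and the median of all fragments for SalB against high fat diet was -0.999, against -0.15 on the trimmed-mean scale. The Lys-CTT call against high fat diet was also lost when high fat diet replicate 1, 2 or 3 was left out (0.54, 0.63 and 0.74 without them, limma-voom adjusted p = 0.126, 0.0890 and 0.0695). That of the lysine total was lost without high fat diet replicate 1, 2 or 3 (0.43, 0.50 and 0.65) or normal diet replicate 1 or 2 (0.53 and 0.53). That of the shared reads was lost without high fat diet replicate 1 or 2 (0.85 and 0.86). Against normal diet, Lys-CTT was not called without high fat diet replicate 1, 2 or 3 (0.54, 0.55 and 0.58) or normal diet replicate 1 or 2 (0.47 and 0.50), and the lysine total not without high fat diet replicate 2 (0.56) or normal diet replicate 1 or 2 (0.48 and 0.52). The make-up of the lysine reads themselves, given below as shares and ratios, does not depend on this scale. The CPM values, fold changes and fragment calls below do depend on it.

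Reads were classed by origin as 5′ (starting at base 1), 3′ (ending in the last 3 bases, the CCA tail) or internal. The 3′ reads made up 2.40, 3.50 and 2.01% of lysine reads with SalB, 7.76, 7.91 and 7.56% on high fat diet, and 9.28, 8.64 and 9.87% on normal diet. No pair of groups overlapped, and the SalB libraries were lowest. The exact permutation p over 280 partitions was 0.00357, the smallest they can give, with 0.0143 after adjustment over 8 measures. This p covers all 3 groups at once and names no pair, and the same holds for every share tested. Between any 2 groups of 3, an exact two-sided test cannot go below 0.1. Internal reads took 79.9, 82.9 and 87.2% with SalB, 79.4, 76.6 and 69.0% on high fat diet, and 75.6, 75.1 and 60.6% on normal diet (exact permutation adjusted p = 0.183). The 5′ reads took 10.8 to 17.7% with SalB, 12.8 to 23.4% on high fat diet and 15.1 to 29.6% on normal diet (exact permutation adjusted p = 0.543). Mean read length was 20.2 to 22.1 bases with SalB, 20.8 to 22.4 on high fat diet and 22.0 to 23.9 on normal diet (exact permutation adjusted p = 0.186).

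Summed levels by origin showed the same split within Lys-CTT. Of all sums of 1 origin within 1 family, 28.3% were called for SalB against high fat diet (20.5% higher, 7.83% lower), 35.5% for SalB against normal diet (26.5% higher, 9.04% lower) and 0.602% for high fat diet against normal diet (0.602% higher, 0% lower). Lys-CTT 3′ reads averaged 935 ± 230.1 CPM with SalB and 1958 ± 56.7 on high fat diet (SD, n = 3 each; log2 fold change -1.07, SE 0.28, limma-voom adjusted p = 0.0223). Lys-CTT internal reads averaged 46576 ± 8227 with SalB and 26226 ± 957 on high fat diet (0.83, SE 0.18, limma-voom adjusted p = 0.00835), and this rise shrank to 0.04 with total tRNA reads as the scale. The 3′ call was lost without SalB replicate 1 or 3 (-0.94 and -0.81) or high fat diet replicate 1, 2 or 3 (-1.12, -1.09 and -1.05). Lys-TTT 3′ reads stood at 756, 1678 and 473 CPM with SalB and 1466, 1700.1 and 2167 on high fat diet, and did not pass (-0.99, SE 0.40, limma-voom adjusted p = 0.0862). SalB replicate 2 was the high one. Without it the log2 fold change was -1.39 (limma-voom adjusted p = 0.00459), and without SalB replicate 3 it was -0.49 (limma-voom adjusted p = 0.311). The 5′ sums were not called in either family (0.25 for Lys-CTT and 0.18 for Lys-TTT, limma-voom adjusted p = 0.723 for both), nor were Lys-TTT internal reads (0.11, limma-voom adjusted p = 0.769).

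Against normal diet, Lys-CTT 3′ reads were lower with SalB by the same test, at 935 ± 230.1 CPM with SalB and 2424 ± 683 on normal diet (log2 fold change -1.34, SE 0.28, limma-voom adjusted p = 0.00478). Lys-CTT internal reads were higher, at 46576 ± 8227 with SalB and 26425 ± 502 on normal diet (0.82, SE 0.17, limma-voom adjusted p = 0.00478). The shared internal reads were higher as well, at 2290.5 ± 412 CPM with SalB and 704 ± 59.0 on normal diet (1.67, SE 0.25, limma-voom adjusted p = 0.00149). Lys-TTT internal reads stood at 9459 ± 2824 with SalB and 5252 ± 769 on normal diet (0.81, SE 0.28, limma-voom adjusted p = 0.0496). That call was lost without SalB replicate 3 (0.80), high fat diet replicate 1, 2 or 3 (0.77, 0.79 and 0.81) or normal diet replicate 1, 2 or 3 (0.87, 0.71 and 0.83), and with total tRNA reads as the scale the value was 0.10. On that scale Lys-CTT internal reads had 0.07 and the shared internal reads 0.94, and neither was called. The SalB libraries serve both comparisons, so these are not independent results.

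**Figure D2:**
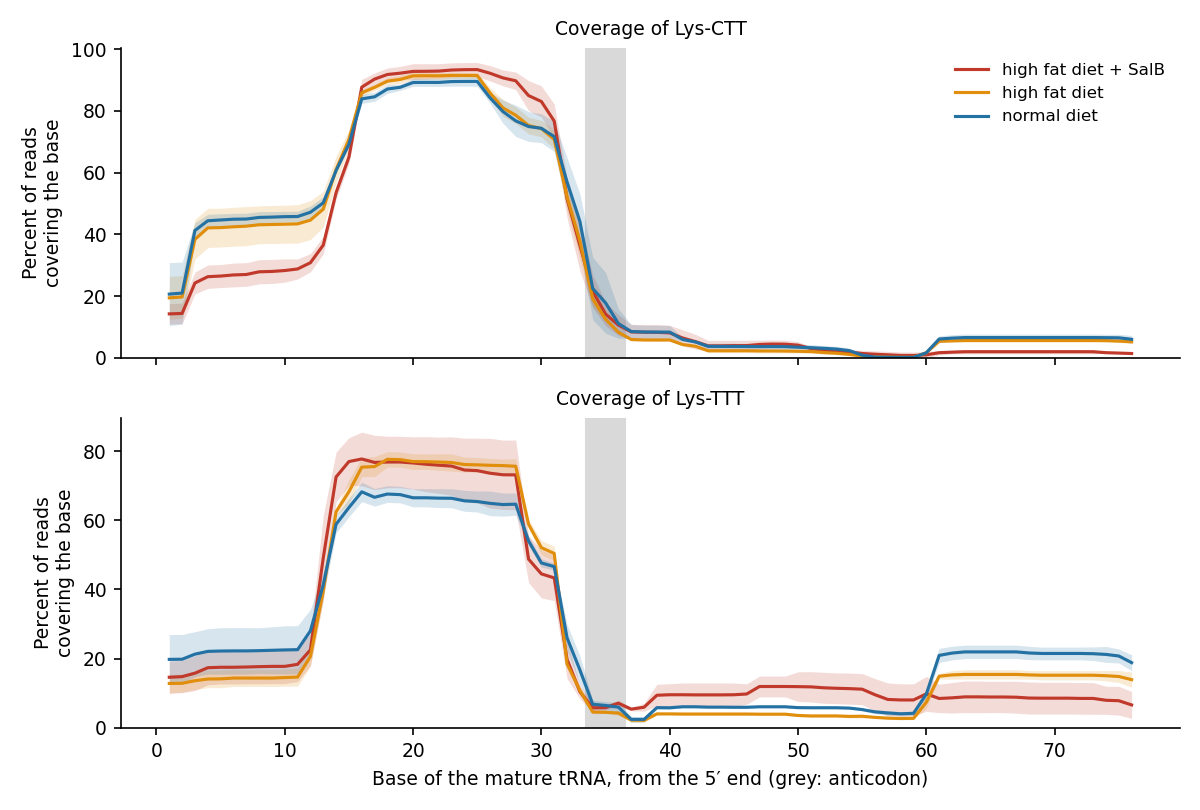
Share of Lys-CTT reads (top) and Lys-TTT reads (bottom) that cover each base of the mature tRNA, as the mean of 3 libraries per group with a band of 1 SD. Most reads lie between the D-loop and the anticodon; at base 8 the Lys-CTT share was 27.9 ± 3.91% with SalB, 43.1 ± 6.13% on high fat diet and 45.5 ± 1.90% on normal diet, and the small 3′ shoulder at base 70 was lowest with SalB in both families.

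Coverage was uneven along the molecule in every group. At base 20, in the D-loop, 92.8 ± 2.51% of Lys-CTT reads were present with SalB, 91.4 ± 1.16% on high fat diet and 89.2 ± 1.25% on normal diet (SD, n = 3 each). At base 70, in the 3′ arm, the shares were 2.01 ± 0.704% with SalB, 5.63 ± 0.428% on high fat diet and 6.59 ± 1.13% on normal diet. Lys-TTT gave relatively more from its 3′ arm, with 8.58 ± 4.59% with SalB, 15.2 ± 1.34% on high fat diet and 21.5 ± 1.84% on normal diet. Reads that start at bases 13 to 16, at the start of the D-loop, made up 56.2, 58.3 and 60.0% of lysine reads with SalB, 52.0, 43.1 and 44.3% on high fat diet, and 42.6, 39.1 and 35.0% on normal diet. The SalB libraries were the highest, with no overlap. Within Lys-CTT SalB also lay above both other groups, while within Lys-TTT it overlapped with both. The Lys-TTT shares were 49.5, 52.7 and 69.5% with SalB and 61.2, 52.4 and 55.3% on high fat diet. On normal diet they were 50.6, 35.6 and 39.5%. These positions were chosen after the values were seen, so no test is given.

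Of the lysine sequences, 64 were abundant enough to be tested singly. They held 14894 reads (52.7% of lysine reads), and a fragment here is 1 distinct sequence. With SalB against high fat diet, 8 rose, 6 fell and 50 were not called (limma-voom adjusted p under 0.05), that is at a background of 34.2% called over all 733 fragments tested, 17.6% higher and 16.6% lower. Their median log2 fold change was 0.23, against -0.15 over all fragments. With SalB against normal diet, 13 rose and 8 fell, where 39% of all fragments were called, 20.5% higher and 18.6% lower, and the medians were 0.22 for lysine fragments and -0.10 for all. Leaving out a high fat diet library took the rises against high fat diet to 5, 4 and 5 for replicates 1, 2 and 3. Leaving out a SalB library took the falls against normal diet to 3, 4 and 5 for replicates 1, 2 and 3, and leaving out normal diet replicate 3 took the rises to 8. Some called fragments would not have passed the filter on low counts without the group in which they were high, so they had to differ and their calls are no support. Against high fat diet these were 3 of the 8 rises, through SalB, and 1 of the 6 falls, through high fat diet. Against normal diet they were 3 of the 13 rises, through SalB, and 2 of the 8 falls, through normal diet. Counts and medians over the 64 fragments are given as a description.

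All 8 fragments that rose against high fat diet were of the CTT-3 type and start at bases 14 to 16, and the 3 of them that passed the filter through SalB are those from bases 14, 15 and 16 to base 34. All 8 fitted both Lys-CTT-13-1 and Lys-CTT-3-1. Reads that fitted both of these and no other reference averaged 24050.5 ± 7999 CPM with SalB and 8662 ± 755 on high fat diet (SD, n = 3 each). Those that fitted Lys-CTT-3-1 alone averaged 8085 ± 1653 and 5191 ± 1742, and these groups overlapped. The tested CTT-3 pieces on Lys-CTT-3-1 alone start at base 1 or base 3. The sets of reads thus cover different bases, and their contrast does not compare the references. Which reference the rising pieces came from was not tested. Of 20 CTT-3 type fragments tested, 8 rose, 0 fell, and the median log2 fold change was 1.11, with the 3 that passed through SalB counted in. Of 20 CTT-2 type fragments, limma-voom called 0, their median was 0.12, and 1 had an unadjusted p under 0.05, as did 332 of all 733 fragments. The sets differ in their starts, with 15 CTT-3 and 10 CTT-2 fragments from bases 13 to 16, at medians of 1.29 and 0.21. All CTT-2 reads from these starts summed to 7302, 6477 and 6177 CPM with SalB and 4803, 5360 and 4679 on high fat diet. There SalB lay above high fat diet and overlapped with normal diet. No test is given for this sum. Of 12 Lys-TTT fragments, 0 rose, 2 fell, and the median was -0.45. With total tRNA reads as the scale, 3 lysine fragments rose and 16 fell.

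**Figure D3:**
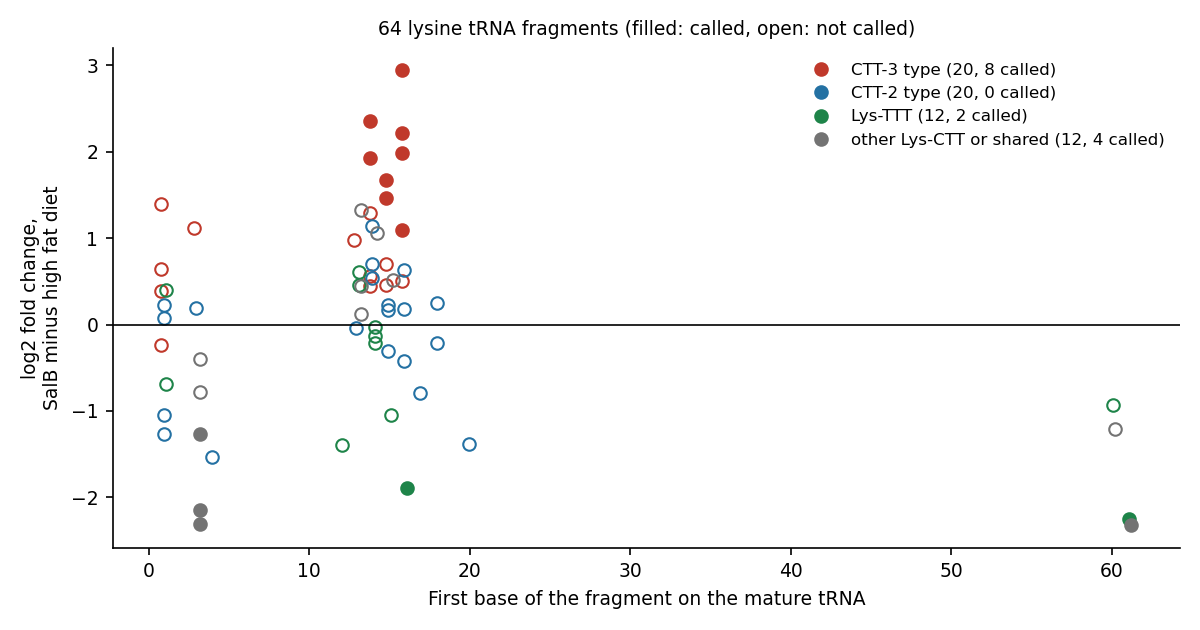
Log2 fold change of SalB minus high fat diet (y) for the 64 lysine fragments against the base at which each starts (x), coloured by kind, with called fragments filled and the others open. The 8 called rises are all CTT-3 type fragments that start at bases 14 to 16, and the called falls start at bases 3, 16 and 61. Of the rises 3, and of the falls 1, passed the filter on low counts only through the group in which they were high.

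The piece from base 16 to base 31 exists in 3 versions that differ only at bases 28 to 30, as printed above. The CTT-3 version had the highest mean of any internal lysine fragment over the 9 libraries, and the SalB libraries carried that mean. It had 3116, 5865 and 1968 CPM with SalB, 1122, 489.9 and 1016 on high fat diet, and 505, 339.9 and 647 on normal diet. Every SalB library was above every other, and SalB replicate 2 was the highest. The log2 fold change was 1.98 against high fat diet (SE 0.45, limma-voom adjusted p = 0.00787) and 2.74 against normal diet (SE 0.46, limma-voom adjusted p = 0.00119). Without SalB replicate 2 the fold change against high fat diet was 1.66 (limma-voom adjusted p = 0.00991).

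The CTT-2 version, which differs by 1 base, stood at 829.8, 690.0 and 598 CPM with SalB, 808, 519 and 537 on high fat diet, and 729, 737 and 554 on normal diet. These groups overlapped, and no call was made (log2 fold change 0.19 against high fat diet, SE 0.32, limma-voom adjusted p = 0.667). The TTT version went the other way. It had 166, 109.8 and 199 CPM with SalB, 479, 576 and 652 on high fat diet, and 374, 198 and 231 on normal diet. The SalB libraries lay below the high fat diet libraries and overlapped with the normal diet libraries. The log2 fold change against high fat diet was -1.89 (SE 0.42, limma-voom adjusted p = 0.00710), on 7 to 9 reads per SalB library, and -1.49 without SalB replicate 2 (limma-voom adjusted p = 0.0345).

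**Figure D4:**
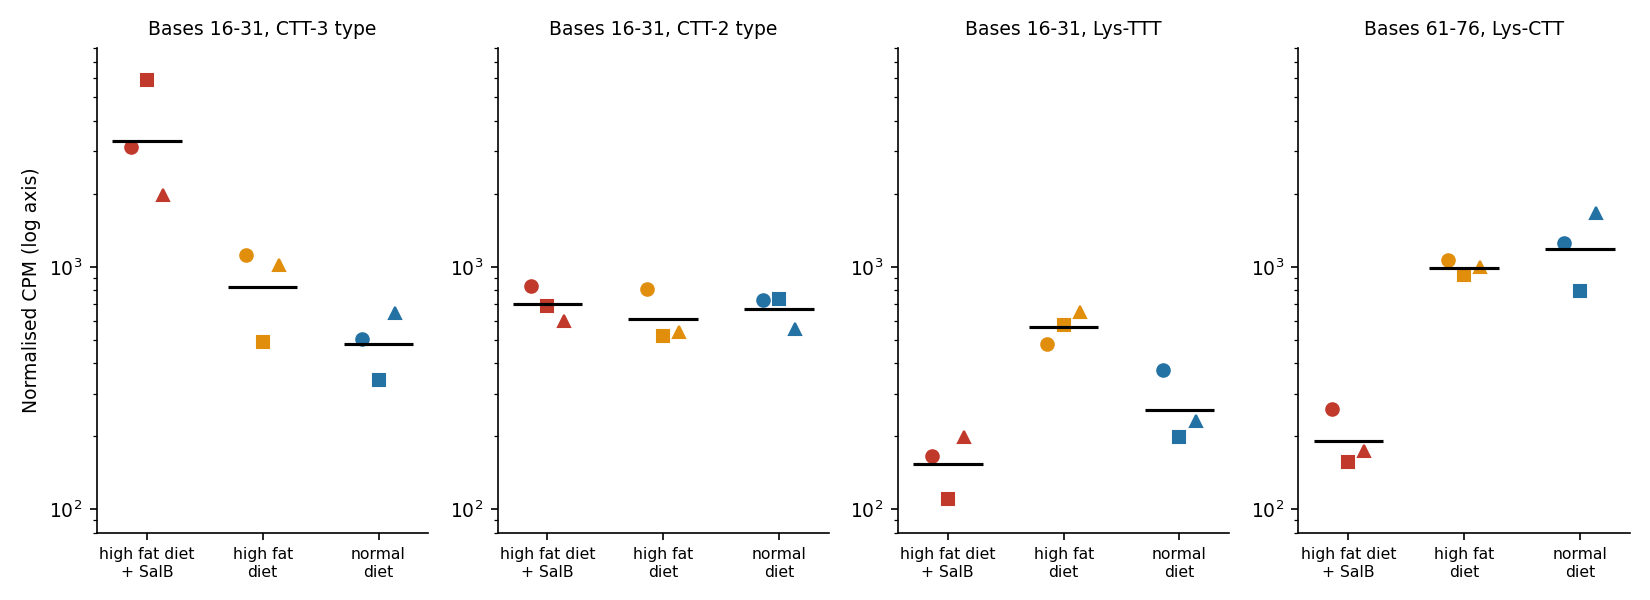
Normalised CPM (log axis) in each library for the 3 versions of the piece from base 16 to base 31 and for the Lys-CTT 3′ piece from base 61 to base 76; points are libraries, with replicates 1, 2 and 3 as circle, square and triangle, and the black line is the geometric mean of 3. The CTT-3 version is higher with SalB, the CTT-2 version overlaps across groups, and the TTT version and the 3′ piece are lower with SalB than on high fat diet.

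Of 15 CTT-3 pieces tested that start at bases 13 to 16, 8 rose against high fat diet and 7 were not called. The 8 include the 3 pieces to base 34 that passed the filter on low counts only through SalB, so those rises are no support. All 15 log2 fold changes were positive. These pieces overlap on the same stretch of a type set up after the values were seen, so they are not independent of each other. The pieces from bases 13, 14, 15 and 16 to base 33 had 0.98, 0.45, 0.70 and 0.50 and were not called (limma-voom adjusted p = 0.104, 0.288, 0.354 and 0.465). Further pieces that were called follow. The piece from base 16 to base 30 had 940.4, 1176 and 722 CPM with SalB, 195, 144 and 230.1 on high fat diet, and 206, 85.0 and 240.2 on normal diet (2.21 against high fat diet, SE 0.41, limma-voom adjusted p = 0.0025). The pieces from base 14 to 31 and from base 15 to 31 rose by log2 fold changes of 1.93 and 1.67 (limma-voom adjusted p = 0.00801 and 0.0145). Without high fat diet replicate 2 the second of these was 1.38 and not called, and with total tRNA reads as the scale they were 1.16 and 0.91 and not called.

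Less steady was the piece from base 16 to 32, at 1.09 against high fat diet (limma-voom adjusted p = 0.0390). It was not called without SalB replicate 1 or 2 (1.21 and 0.88), high fat diet replicate 1, 2 or 3 (1.09, 1.11 and 1.01) or normal diet replicate 1 (1.07), nor with total tRNA reads as the scale (0.32).

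The 3 CTT-3 pieces that end at base 34, the first anticodon base, would not have passed the filter on low counts without the SalB libraries, so their values are given without a test. The piece from base 16 had 756, 753 and 623 CPM with SalB, 74.8, 86.4 and 95.9 on high fat diet, and 131, 28.3 and 111 on normal diet. That from base 14 had 461, 972 and 573 CPM with SalB, 254, 115 and 38.4 on high fat diet, and 112, 0 and 148 on normal diet. That from base 15 had 387, 251 and 374 CPM with SalB, 74.8, 259 and 115 on high fat diet, and 131, 56.7 and 102 on normal diet. The first 2 were higher in every SalB library than in any other, and the third overlapped with high fat diet replicate 2. On high fat diet the piece from base 16 rests on 3 to 5 reads per library.

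Over all reads that span bases 28 to 30, the ratio of CTT-3 to CTT-2 reads was 1.88, 3.43 and 1.79 with SalB, 1.25, 1.01 and 1.20 on high fat diet, and 0.920, 0.969 and 0.588 on normal diet. No pair of groups overlapped, and the order was SalB, high fat diet, normal diet. Among reads starting at bases 13 to 16 the ratio was 3.05, 4.54 and 2.41 with SalB, 1.76, 1.35 and 1.86 on high fat diet, and 1.24, 0.947 and 1.10 on normal diet. Among reads starting at base 1 the groups overlapped, with 0.835, 3.37 and 1.37 with SalB, 0.909, 0.635 and 0.973 on high fat diet, and 0.662, 2.34 and 0.359 on normal diet. For reads starting at base 3 the ratio was 1.51, 2.71 and 1.40 with SalB, 1.34, 1.38 and 1.10 on high fat diet, and 1.42, 1.02 and 0.593 on normal diet. There SalB lay above high fat diet and overlapped with normal diet. Because the types were set up after the values were seen, these ratios are described without a test.

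The ratio can also be read at fixed ends. For 22 pairs of first and last base, each type had at least 10 exactly matching reads in every group, with the reads of a group's libraries pooled. In 18 of them the pooled ratio was highest with SalB, and in 19 of the 22 it was higher on high fat diet than on normal diet. Library by library, all 3 SalB libraries lay above all others in 7 of the 22. The pooled values weight SalB replicate 2 most, which held 374 reads of the CTT-3 piece from base 16 to base 31, against 169 and 79 in SalB replicates 1 and 3. The pooled ratios ran from 0.242 to 9.69 with SalB, from 0.124 to 4.17 on high fat diet and from 0.0667 to 5.20 on normal diet. Reads with any other bases at 28 to 30 numbered 27 to 87 per library with SalB, 22 to 40 on high fat diet and 11 to 28 on normal diet, against 891 to 2609, 435 to 845 and 411 to 1357 CTT-3 reads in the same groups. Misreading between types that differ by 1 base was not tested.

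**Figure D5:**
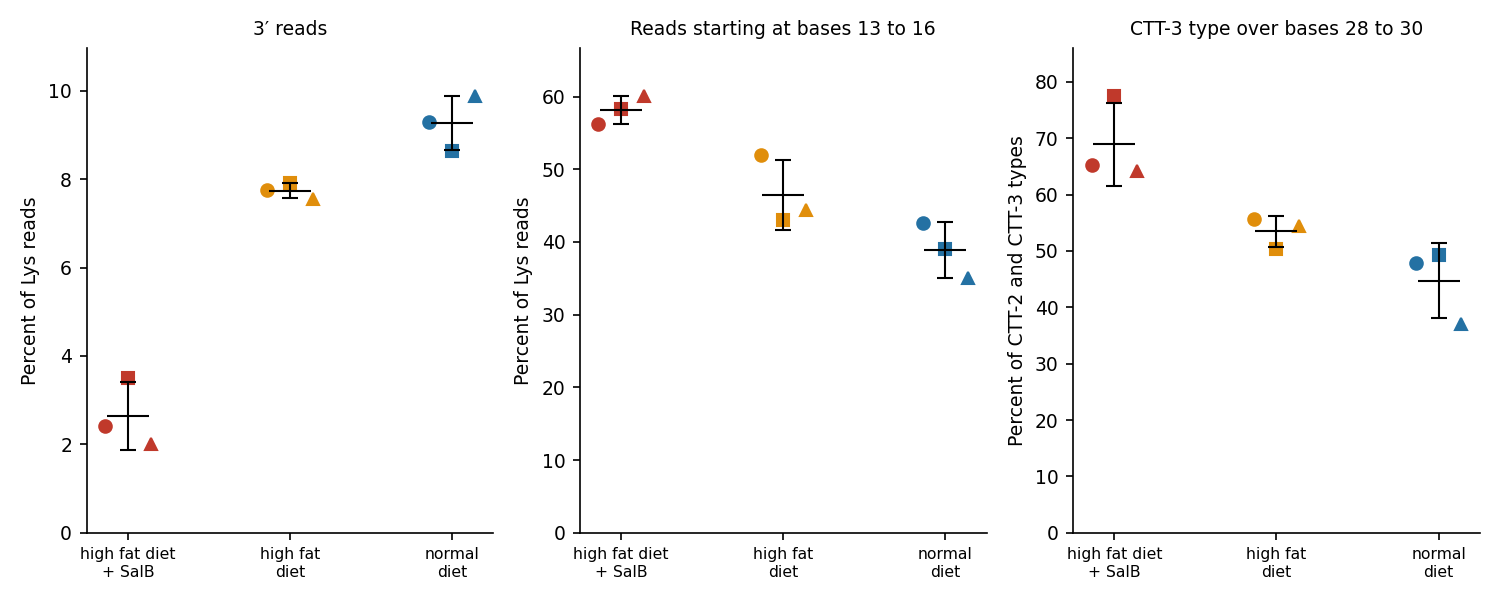
Share of lysine reads that are 3′ reads (left), that start at bases 13 to 16 (middle), and share of the CTT-3 type among CTT-2 and CTT-3 reads over bases 28 to 30 (right) in each library, with the mean and SD of each group (n = 3). The 3 SalB libraries are lowest for 3′ reads and highest for the other shares. Within Lys-TTT alone, the share starting at bases 13 to 16 overlapped between SalB and each other group.

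The fragments that fell against high fat diet were of 3 kinds. The first was the pair of 3′ pieces from base 61 to base 76, which begin just past the T-loop. The Lys-CTT piece had 258, 157 and 174 CPM with SalB, 1062, 922 and 997 on high fat diet, and 1253, 793 and 1672 on normal diet. The SalB libraries were far below all others (log2 fold change -2.32 against high fat diet, SE 0.41, limma-voom adjusted p = 0.00199, and -2.59 against normal diet, SE 0.40, limma-voom adjusted p = 0.000752). The Lys-TTT piece had 166, 157 and 125 CPM with SalB, 658, 663 and 997 on high fat diet, and 841, 963 and 942 on normal diet (-2.26 against high fat diet, SE 0.39, limma-voom adjusted p = 0.00194).

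These counts were low in the SalB group, at 7 to 14 reads per library for Lys-CTT and 5 to 10 for Lys-TTT. The same pieces with 1 more base, from base 60 to base 76, differed less. For Lys-CTT they stood at 129, 172 and 74.7 CPM with SalB and 329, 375 and 249 on high fat diet (-1.21, SE 0.47, limma-voom adjusted p = 0.0657). For Lys-TTT they stood at 148, 235 and 125 CPM with SalB and 314, 461 and 288 on high fat diet (-0.93, SE 0.44, limma-voom adjusted p = 0.120). Whether the pieces of 16 and 17 bases differ in their change was not tested. Of 232 3′ fragments from other mature nuclear tRNAs, 62 fell and 1 rose against high fat diet, at a median of -0.79, so falling 3′ fragments were also found outside the lysine tRNAs.

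Among lysine 3′ reads, those ending exactly at base 76 with the full CCA made up 85.2, 81.4 and 85.7% with SalB, 92.4, 95.3 and 90.4% on high fat diet, and 90.8, 87.8 and 92.7% on normal diet. The SalB libraries were lowest without overlap (exact permutation p = 0.0179, adjusted p = 0.0476 over 8 measures). The call was lost when any SalB library, high fat diet replicate 1 or 2, or normal diet replicate 1 or 2 was left out, with SalB minus high fat diet differences of -7.22 to -9.37 percentage points, against -8.57 with all libraries. With exactly matching reads only, it was -4.94 percentage points and not called.

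The second kind of falling fragment starts at base 3 and ends at base 25 or 26, just short of the bases that tell the CTT types apart. The piece from base 3 to base 25 had 203, 172 and 399 CPM with SalB, 868, 1239 and 1074 on high fat diet, and 1028, 1643 and 563 on normal diet. All SalB libraries were below all others (-2.15 against high fat diet, SE 0.47, limma-voom adjusted p = 0.00642, and -2.03 against normal diet, limma-voom adjusted p = 0.00663). Its variant C25T, which names the base of the reference, then the position, then the base seen, would not have passed the filter on low counts without the high fat diet libraries, and is given without a test. It had 92.2, 62.7 and 99.6 CPM with SalB, 359, 489.9 and 479 on high fat diet, and 411, 538 and 166 on normal diet. The piece from base 3 to base 26 had a log2 fold change of -1.27 against high fat diet (limma-voom adjusted p = 0.0257).

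The variant rests on 4 or 5 reads per SalB library. The piece to base 26 was not called without SalB replicate 1, 2 or 3 (-1.30, -1.12 and -1.02) or high fat diet replicate 2 or 3 (-1.12 and -1.24). Reads starting at base 3 made up 8.20, 5.85 and 9.63% of lysine reads with SalB, 12.6, 17.3 and 11.7% on high fat diet, and 18.7, 20.3 and 9.68% on normal diet. Those long enough to show the CTT-3 type went the other way. They stood at 2176, 2211 and 1993 CPM with SalB, 883, 1354 and 1036 on high fat diet, and 1757, 1218 and 794 on normal diet. Those of the CTT-2 type had 1438, 815 and 1420 CPM with SalB and 658, 980 and 940 on high fat diet, which overlapped. On normal diet the CTT-2 type had 1234, 1190 and 1339. Whether the contrast with the short pieces goes with type or with length was not tested. The third kind was the TTT version of the piece from base 16 to base 31 described above.

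The long 5′ pieces end in or just before the anticodon. None of 10 tested 5′ fragments was called in any comparison by limma-voom, and 1, 2 and 0 had an unadjusted p under 0.05 for SalB against high fat diet, SalB against normal diet and high fat diet against normal diet, against 332, 369 and 87 of all 733 fragments. The CTT-2 piece from base 1 to base 35 had 904, 125 and 249 CPM with SalB, 479, 778 and 729 on high fat diet, and 692, 198 and 3196 on normal diet. Its mean over the 9 libraries was the highest of the 5′ pieces, which rests on normal diet replicate 3, and the groups overlapped (log2 fold change -1.05 against high fat diet, SE 0.92, limma-voom adjusted p = 0.381). The CTT-3 piece from base 1 to base 33 had 701, 1019 and 548 CPM with SalB, 374, 259 and 1688 on high fat diet, and 486, 652 and 813 on normal diet (0.39, SE 0.58, limma-voom adjusted p = 0.614). The CTT-2 pieces to base 34 and base 36 had log2 fold changes of 0.23 (SE 0.61) and 0.07 (SE 0.88). Spread between replicates was large for these pieces, so changes of this size were not detectable.

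Among Lys-TTT pieces, that from base 13 to base 28 had the highest mean over the 9 libraries, with 885, 1255 and 3886 CPM with SalB, 1047, 951 and 1611 on high fat diet, and 729, 538 and 434 on normal diet. It overlapped between SalB and high fat diet, and lay above normal diet in every SalB library (log2 fold change 1.55 against normal diet, SE 0.51, limma-voom adjusted p = 0.0317). That call was lost without SalB replicate 3 (1.07), high fat diet replicate 1 (1.51) or normal diet replicate 2 or 3 (1.53 and 1.39), and with total tRNA reads as the scale (0.79). Lys-TTT took 13.3, 18.2 and 22.8% of the reads of 1 lysine family with SalB, 25.3, 22.5 and 27.4% on high fat diet, and 20.6, 21.3 and 17.1% on normal diet (exact permutation adjusted p = 0.179). Without SalB replicate 3 the share was called over the 3 groups together (exact permutation adjusted p = 0.0476), which names no pair. The SalB minus high fat diet difference was then -9.31 percentage points, against -6.96 with all libraries. With all libraries, only high fat diet and normal diet did not overlap.

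Further fragments were called against normal diet only, a difference between comparisons that was not tested. The Lys-CTT piece from base 14 to base 28 rose to 738, 784 and 1445 CPM with SalB, against 374, 113 and 212 on normal diet (2.00, SE 0.46, limma-voom adjusted p = 0.00616), a call lost with total tRNA reads as the scale (1.28). The CTT-2 piece from base 14 to 31 rose to 479, 455 and 249 CPM with SalB, against 187, 142 and 175 on normal diet (1.14, SE 0.41, limma-voom adjusted p = 0.0440). That call was lost without SalB replicate 1 or 2 (1.12 and 1.14), high fat diet replicate 1, 2 or 3 (1.11, 1.12 and 1.14) or normal diet replicate 1, 2 or 3 (1.15, 1.07 and 1.20), and with total tRNA reads as the scale (0.37). The CTT-2 piece from base 16 to 33 had -1.25 (limma-voom adjusted p = 0.0318). It was not called without SalB replicate 1 or 2 (-1.26 and -0.62) or normal diet replicate 1, 2 or 3 (-1.30, -1.19 and -1.25). The CTT-2 piece from base 20 to 33 and the Lys-CTT piece from base 3 to 16 would not have passed the filter on low counts without the normal diet libraries, in which they were highest, so no test is given. From base 20 the values were 129, 15.7 and 174 CPM with SalB and 243, 312 and 388 on normal diet. From base 3 they were 36.9, 62.7 and 74.7 CPM with SalB and 187, 255 and 259 on normal diet. The Lys-CTT 3′ piece from base 60 to 76 had -1.64 (limma-voom adjusted p = 0.0155), which was -1.53 and -1.29 and not called without SalB replicate 1 or 3.

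For high fat diet against normal diet, 0 of 64 lysine fragments and 0 of 733 fragments in all (0%) were called by limma-voom, and limma on log2 values also called 0 lysine fragments. Without adjustment, 7 of 64 lysine fragments had p under 0.05, as did 87 of all 733. The Lys-TTT pieces from base 14 to 31 and 16 to 31 had log2 fold changes of 1.14 and 1.08 (limma-voom adjusted p = 0.308 for both). The Lys-CTT piece from base 3 to 16 and the CTT-2 piece from base 15 to 33 had -1.48 and -1.03, and both passed the filter only through the normal diet libraries. The CTT-2 piece from base 3 to 33 had -1.03 (limma-voom adjusted p = 0.353), and the Lys-TTT piece from base 15 to 31 had 0.95. The family sums were not called (-0.08 for Lys-CTT, 0.40 for Lys-TTT and 0.81 for the shared reads, limma-voom adjusted p = 0.939, 0.875 and 0.388).

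The T-loop adenosine at base 58 is often methylated in tRNAs, which makes reverse transcriptase stop or misread there. Few lysine reads span it. Reads without A at base 58 numbered 0 of 46, 4 of 201 and 0 of 19 with SalB, 2 of 19, 3 of 13 and 3 of 28 on high fat diet, and 1 of 24, 1 of 13 and 2 of 50 on normal diet. The shares were 0, 1.99 and 0% with SalB, 10.5, 23.1 and 10.7% on high fat diet, and 4.17, 7.69 and 4% on normal diet. The 3 groups did not overlap (exact permutation p = 0.00357, the smallest possible, adjusted p = 0.0143 over 8 measures), and the call was lost without SalB replicate 1 or 2 (differences from high fat diet of -13.8 and -14.8 percentage points).

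The depth is thin for this measure. Counts of 0 of 46 and 0 of 19 allow shares of up to 6.52% and 15.8%, taken as 3 reads of the total, and the exact 95% binomial intervals end at 7.71% and 17.6%. That of high fat diet replicate 1 runs from 1.30 to 33.1%. The deepest library was SalB replicate 2, which held nearly all of the lysine reads from bases 47 to 50 described above. Intervals and limits cover counting error only.

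Set beside other families whose wobble uridine carries a related modification, Lys-TTT (log2 fold change 0.01 for SalB against high fat diet) lay among them. Arg-TCT rose by 0.67 (limma-voom adjusted p = 0.0420), and Gln-TTG, Gly-TCC and Glu-TTC were not called (0.68, 0.24 and -0.34, limma-voom adjusted p = 0.242, 0.455 and 0.312). Among 60 other mature nuclear families, 10 rose and 5 fell, with a median of 0.29. The families whose levels followed the lysine total most closely over the 9 libraries were precursor Ile-TAT, mature Ile-TAT and precursor Arg-ACG (Pearson r = 0.930, 0.922 and 0.909 among 98 families). These libraries share their scaling, and the values are a description.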

How the data were processed

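Total RNA from serum was ligated to adapters, copied to cDNA, amplified, gel-selected and sequenced on an Illumina NextSeq, per the labels' protocols. The submitters' processing notes name Bowtie, cutadapt, FastQC, edgeR and mm10 without roles. Each deposited file lists the alignments of 1 library to tRNA references, and the read count of each distinct sequence stands inside its read name; the other deposited columns used are offsets and alignment details in units of their own. Lysine reads were 14 to 40 bases long, and 73.8% matched exactly. The files hold only tRNA reads, so totals are not library depth.

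Each read was counted once. Because the counts stand inside names, limma-voom (limma 3.58.1, R 4.3.3) was used in 1 fit over 9 libraries, with trimmed-mean scaling computed from its definition, two-sided tests and Benjamini-Hochberg adjustment at 0.05 over each whole table. A feature was tested if 3 or more libraries held what 10 reads are at the median library of 44415 reads, and all libraries together held 15. The fit of single fragments was tried on simulated counts that gave every fragment the same spread. Shares were compared by exact permutation over 280 partitions (scipy 1.17.1), and intervals are Clopper-Pearson. Within groups, libraries differed by more than sampling noise (chi-square per degree of freedom 1.59 to 8.62). Same-numbered libraries of different groups had correlations of -0.315 to 0.148 over 9 pairs, so numbers were not treated as pairs.

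Members and lists were chosen with earlier results of these data known. Named fragments were the 4 most abundant of each origin and, per comparison and direction, up to 8 called with the smallest p, or the 3 smallest p where none was called. The split into CTT-2 and CTT-3 types, start windows and fixed-end ratios were added after the values were seen. Alternatives were other scalings, filters, libraries in the fit, a replicate block, limma on log2 with a pseudocount of 1, exact reads, removal of Leu-CAG-3-1 precursor reads, and each library left out.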

Additional observations from a re-analysis of the deposited data

Results flagged for a closer look

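Reads that align both to Lys-CTT and to Sup-TCA, a suppressor tRNA reference, were left out of every lysine comparison. They stood at 2213, 3528 and 2092 CPM with SalB, 1466, 1383 and 1055 on high fat diet, and 1009.5, 793 and 1089.9 on normal diet. They are listed because a signal in reads outside the comparisons lay above the normal diet level in all 3 SalB libraries (log2 fold change 1.37 for SalB against normal diet, limma-voom adjusted p = 0.00530, and 0.97 against high fat diet, limma-voom adjusted p = 0.0241). Of all families, 28.2% were called higher for SalB against normal diet and 26.2% for SalB against high fat diet. Which tRNA the reads shared with Sup-TCA came from was not tested.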

How the results depend on the processing

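Values in brackets are log2 fold changes, counts of fragments or, for shares, percentage points. A share is called over all 3 groups together, while its bracket holds the SalB minus high fat diet difference. Scaling by relative log expression changed no call. With total tRNA reads as the scale, those that changed sign were, for SalB against high fat diet Lys-CTT (-0.13), Lys-TTT (-0.78), the lysine total (-0.30), Lys-CTT 5′ reads (-0.54), Lys-TTT 5′ reads (-0.61) and Lys-TTT internal reads (-0.63), and for SalB against normal diet Lys-CTT (-0.16), Lys-TTT (-0.35), the lysine total (-0.22), Lys-CTT 5′ reads (-0.59) and Lys-TTT 5′ reads (-0.75), and for high fat diet against normal diet Lys-CTT internal reads (0.025). Those that were no longer called or fewer were, for SalB against high fat diet shared reads (0.21), Lys-CTT internal reads (0.045), shared internal reads (0.051) and fragments higher (3), and for SalB against normal diet shared reads (1.06), Lys-CTT internal reads (0.070), shared internal reads (0.94), Lys-TTT internal reads (0.097) and fragments higher (6). Those that were newly called or more were, for SalB against high fat diet Lys-TTT 3′ reads (-1.80) and fragments lower (16), and for SalB against normal diet Lys-TTT 3′ reads (-1.86) and fragments lower (20). With only the libraries compared in the fit, those that changed sign were, for SalB against high fat diet Lys-TTT (-0.093) and Lys-TTT internal reads (-0.0048), and for SalB against normal diet Lys-CTT 5′ reads (-0.031) and Lys-TTT 5′ reads (-0.088), and for high fat diet against normal diet Lys-CTT internal reads (0.041). Those that were no longer called or fewer were, for SalB against high fat diet Lys-CTT (0.57), shared reads (0.86), the lysine total (0.45) and shared internal reads (0.71), and for SalB against normal diet Lys-CTT (0.47), the lysine total (0.48), Lys-CTT internal reads (0.72) and Lys-TTT internal reads (0.71). Those that were newly called or more were, for high fat diet against normal diet shared reads (0.87). With no filter on low counts, those that were no longer called or fewer were, for SalB against high fat diet the lysine total (0.54), Lys-CTT 3′ reads (-1.07) and shared internal reads (0.81), and for SalB against normal diet Lys-CTT (0.58) and Lys-TTT internal reads (0.80). Those that were newly called or more were, for SalB against high fat diet fragments higher (32) and fragments lower (10), and for SalB against normal diet fragments higher (53). Without the Leu-CAG-3-1 precursor reads, those that changed sign were, for SalB against high fat diet Lys-TTT (-0.066) and the lysine share of tRNA reads (0.14), and for SalB against normal diet Lys-CTT 5′ reads (-0.040) and Lys-TTT 5′ reads (-0.082). Those that were no longer called or fewer were, for SalB against high fat diet the lysine total (0.47) and shared internal reads (0.74), and for SalB against normal diet Lys-CTT (0.48), the lysine total (0.48) and Lys-TTT internal reads (0.71). Those that were newly called or more were, for SalB against normal diet Lys-TTT 3′ reads (-1.19). With exactly matching reads, those that changed sign were, for high fat diet against normal diet Lys-CTT internal reads (0.0072). Those that were no longer called or fewer were, for SalB against high fat diet shared reads (0.71), shared internal reads (0.75) and the share of full CCA ends (-4.94). With the filter in at least 6 libraries, those that changed sign were, for high fat diet against normal diet Lys-CTT internal reads (0.018). Those that were no longer called or fewer were, for SalB against high fat diet fragments higher (5), and for SalB against normal diet fragments lower (4). With limma on log2 values, those that changed sign were, for SalB against normal diet Lys-TTT 5′ reads (-0.0091). The base 58 share is 0 by construction in exactly matching reads, so it has no such value. Fragments called for high fat diet against normal diet stayed at 0 in all alternatives. The causes of these changes were not tested.

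Same-numbered libraries were not shown to be pairs. With the replicate number as a block, those that changed sign were, for SalB against normal diet Lys-TTT 5′ reads (-0.0031). Those that were no longer called or fewer were, for SalB against high fat diet Lys-CTT (0.65) and the lysine total (0.54), and for SalB against normal diet Lys-CTT (0.58) and Lys-TTT internal reads (0.83).

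With each library left out in turn, the ranges for SalB against high fat diet were -5.53 to -4.79 for the 3′ share, -5.45 to -0.14 for the 5′ share, 4 to 10 for fragments higher and 4 to 6 for fragments lower. They were -1.19 to 0.17 for the lysine share of tRNA reads, 0.43 to 0.76 for the lysine total, -1.14 to -0.81 for Lys-CTT 3′ reads and -0.088 to 0.64 for Lys-CTT 5′ reads. They were 0.77 to 1.07 for Lys-CTT internal reads, 0.54 to 0.92 for Lys-CTT, 0.70 to 1.01 for shared internal reads and 0.85 to 1.16 for shared reads. They were -1.39 to -0.49 for Lys-TTT 3′ reads, -0.081 to 0.51 for Lys-TTT 5′ reads, -9.31 to -4.56 for the Lys-TTT share and -0.018 to 0.47 for Lys-TTT internal reads. They were -0.11 to 0.33 for Lys-TTT, -9.74 to -7.22 for the share of full CCA ends, 5.34 to 10.54 for the internal share and -1.30 to -0.34 for mean length. They were -16.23 to -9.96 for the base 58 share. With each library left out in turn, the ranges for SalB against normal diet were 8 to 13 for fragments higher, 3 to 8 for fragments lower, 0.48 to 0.81 for the lysine total and -1.56 to -1.07 for Lys-CTT 3′ reads. They were -0.26 to 0.69 for Lys-CTT 5′ reads, 0.79 to 1.07 for Lys-CTT internal reads, 0.47 to 0.84 for Lys-CTT and 1.57 to 1.87 for shared internal reads. They were 1.69 to 2.01 for shared reads, -1.50 to -0.58 for Lys-TTT 3′ reads, -0.32 to 0.28 for Lys-TTT 5′ reads and 0.71 to 1.20 for Lys-TTT internal reads. They were 0.36 to 0.76 for Lys-TTT. With each library left out in turn, the ranges for high fat diet against normal diet were 0 to 0 for fragments higher, 0 to 0 for fragments lower, -0.065 to 0.12 for the lysine total and -0.48 to -0.13 for Lys-CTT 3′ reads. They were -0.52 to 0.33 for Lys-CTT 5′ reads, -0.083 to 0.019 for Lys-CTT internal reads, -0.17 to 0.00044 for Lys-CTT and 0.71 to 0.94 for shared internal reads. They were 0.66 to 0.90 for shared reads, -0.25 to 0.039 for Lys-TTT 3′ reads, -0.49 to 0.065 for Lys-TTT 5′ reads and 0.57 to 0.80 for Lys-TTT internal reads. They were 0.24 to 0.49 for Lys-TTT.

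Of the 35 fragment calls, 12 were lost with total tRNA reads as the scale, 9 with no filter and 5 with the replicate block. Leaving out any 1 library lost 6 to 10 of the 31 to 35 that could still be tested, and the rest no longer passed the filter on low counts. No called fragment changed sign. Depth limits the rarer fragments. Some called falls rest on few reads in the SalB libraries, and some called rises on few reads in the diet libraries. The CTT-3 piece from base 16 to base 30 had 5 to 13 reads per library on high fat diet and 3 to 26 on normal diet, against 29 to 75 with SalB.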
